A study of Canis lupus familiaris with 25 samples.

Results

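The 100 most abundant transcripts of non-malignant canine prostate tissue were followed through 25 RNA-seq libraries. They were chosen by measured values: of the 32220 Ensembl gene IDs counted, 25395 of them with at least 1 count in some library, the 100 with the highest median level across the 9 non-malignant tissue samples were taken. The level was the count of an ID per 1000000 gene counts of its library (CPM), with the counts of KLK2 left out of the total. KLK2 itself was left out, and so were KLK4, ACPP, MKI67, PCNA, MYC, CTNNB1, PMEPA1 and 5 globin IDs. The files do not pair IDs with gene names, and 0 of the 32220 IDs matched the gene table used here, so the members are called by their rank, 1 being the highest. Because gene lengths were not used here, a rank orders genes by the reads they took and not by transcript number.

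The study compared ultrasound-guided fine-needle aspirates (US-FNA) of the prostate with solid prostate tissue, each from dogs with and without prostate carcinoma. Non-malignant tissue came from 9 intact male dogs aged 1 to 16 years (PT-10 to PT-18), and malignant tissue from 3 intact and 6 neutered male dogs aged 8 to 12 years (libraries PT-1 up to PT-9). The non-malignant aspirates US-40, US-32, US-15, US-13 and US-7 came from 5 intact male dogs aged 4 to 10 years. The malignant aspirates US-4 and US-3 came from 2 neutered male dogs aged 9 and 10 years. Tissue was taken after death and the aspirates were taken in life, except perhaps US-3, whose dog was aspirated again once euthanised. Part of the study's tissue set was frozen tissue from a bank, and the labels do not tell which libraries came from it. The RNA of each sample type was isolated with a different kit, so sample type, sampling time, storage and extraction cannot be told apart. All non-malignant samples were from intact dogs, so diagnosis and neutering overlap as well, fully so among the aspirates. The labels name no batch. Gene counts per library ranged from 3355926 to 6594032.

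The prostate gland is lined by luminal epithelial cells that make and secrete the proteins of the prostatic fluid. Secretory cells of this kind give much of their messenger RNA to few genes, so a short list of transcripts can fill a large part of a sequencing library. Among the known products are the kallikrein-related serine proteases KLK2 and KLK4 and the prostatic acid phosphatase ACPP. Because CPM values of a library have a fixed sum, a transcript that loses reads leaves more of that sum to the others. Which members are secretory products could not be told without names. In bulk samples, fewer cells of a type and less RNA per cell cannot be told apart.

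The tissue labels were checked on the 3 prostate genes that the rule had left out. The study had already reported these genes as lower in malignant tissue and US-FNA of the same series, so the check is not independent. KLK2 alone took from 15.7% to 48.2% of the gene counts in non-malignant tissue, where the median was 39.3%. In the non-malignant aspirates the range was 29.6% to 43.8%. In malignant tissue its highest share was 0.0657%, in PT-9, and in US-4 and US-3 it was 0.000444% and 0.000479%. KLK4 stood at a median of 442 CPM in non-malignant tissue and 299 CPM in non-malignant US-FNA, against 2.02 CPM in malignant tissue and 0.993 CPM in malignant US-FNA. ACPP had medians of 179, 243, 3.03 and 6.18 CPM in the same order. In all 3 genes every non-malignant library lay above every malignant library.

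The list was headed by few very abundant IDs, 5 of ranks 1 to 10 from a single run of neighbouring ID numbers described below. Rank 1 had a median of 25682 CPM in non-malignant tissue, from 8433 to 45192 CPM across the dogs, and rank 2 a median of 15547 CPM. The last members, ranks 99 and 100, had medians of 1213 and 1205 CPM, and the first IDs outside the list, ranks 101 and 102, had 1203 and 1198 CPM. The lower edge therefore did not follow a gap in the values. Ranks 101 to 200 served as a comparison list, ending at 542 CPM. All 100 members passed the filter on low counts that left 15127 genes for testing.

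Members differed in how evenly they were expressed among the 9 non-malignant glands. The coefficient of variation had a median of 21.9% and ran from 8.41% for rank 48 to 111% for rank 59. The ratio of the highest to the lowest dog had a median of 2.01 and reached 26.2 for rank 47. Rank 59 held 12928 CPM in PT-10 and 12785 CPM in PT-13, but 617 CPM in PT-18. Rank 91 was also highest in PT-10 and PT-13, at 5142 and 5258 CPM, and lowest in PT-12, at 348 CPM. Rank 18, by contrast, stayed between 2202 and 3817 CPM.

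Together the members took a median of 31.0% of the gene counts without KLK2 in non-malignant tissue, from 23.4% in PT-15 and PT-16 to 41.9% in PT-11. The 9 malignant tissues had a median of 15.8%, from 10.8% in PT-1 to 21.6% in PT-4, and all of them lay below all 9 non-malignant tissues. Non-malignant US-FNA was close to the tissue of the same diagnosis, with 33.6% in US-13, 25.2% in US-7, 30.6% in US-15, 35.7% in US-32 and 20% in US-40. Malignant US-FNA held 20.6% in US-4 and 11.5% in US-3. Across diagnoses, US-4 and PT-4 overlapped with US-40 and with no other non-malignant library. The 95% Wilson intervals of these shares were at most 0.12 percentage points wide and cover counting error only. With KLK2 in the total the tissue ranges overlapped, at 13.8% to 28.1% in non-malignant and 10.8% to 21.6% in malignant tissue, and the US-FNA medians were 17.2% and 16.0%. The separation in tissue thus holds for the counts without KLK2 only. The non-malignant tissue values come from the samples that chose the list and are a description.

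Malignant libraries were also less concentrated on their own leading genes by median, with ranges that overlapped. The 100 highest IDs of each library, chosen anew in that library, took a median of 31.7% in non-malignant tissue and 32.2% in non-malignant US-FNA, against 23.9% in malignant tissue and 29.5% and 23.6% in US-4 and US-3. The next 100 IDs of the list had median shares of 7.94% and 7.69% in non-malignant tissue and US-FNA and 5.32% and 5.27% in malignant tissue and US-FNA. That list was ranked on non-malignant tissue as well, so its tissue shares are a description.

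**Figure D1:**
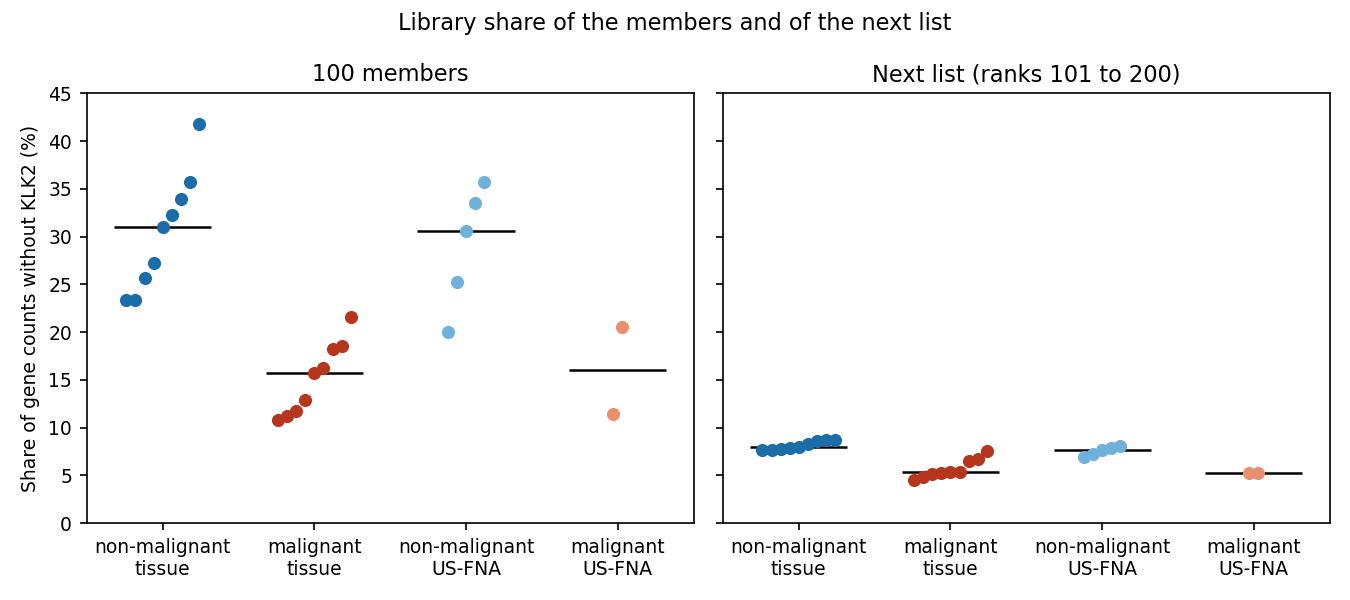
Share of the gene counts without KLK2 taken by the 100 members (left) and by ranks 101 to 200 (right), in percent. Each point is 1 library and the horizontal line is the group median, and on the left the malignant tissues (10.8% to 21.6%) lie below the non-malignant tissues (23.4% to 41.9%).

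Ranks 1 to 10 took a median of 11.5% in non-malignant tissue and 2.79% in malignant tissue, and ranks 51 to 100 took 7.99% and 4.92%. A larger drop of the first ranks is favoured by ranking on non-malignant tissue, so this is a description. In malignant against non-malignant US-FNA, which had no part in the ranking, the median log2 fold changes of these 2 stretches were close, at −0.78 and −0.67. They were far apart in malignant tissue against non-malignant US-FNA, at −2.27 and −0.36, where the sides differ in sample type as well. In US-FNA ranks 1 to 10 took a median of 14.5% in non-malignant samples, from 7.22% in US-40 to 19.1% in US-32, and 9.39% and 4.15% in the malignant samples US-4 and US-3. The first 10 ranks thus held more of the library in non-malignant US-FNA than in non-malignant tissue by median, with ranges that overlapped.

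Many members stayed among the leading genes elsewhere, although the list was drawn up on non-malignant tissue. Of the 100 members, 79 were among the 100 highest IDs of non-malignant US-FNA, 61 among those of malignant tissue and 40 among those of malignant aspirates, each ranked by group median. The last count differed between the libraries, being 49 for US-4 alone and 23 for US-3 alone. The median position of a member was 55.5 in non-malignant US-FNA, 77.5 in malignant tissue and 125.5 for malignant aspirates. A position beyond 1000 was reached by 2, 9 and 10 members in the same order. The lowest positions were 11789 for rank 47 in malignant tissue, 10906 for rank 59 in non-malignant US-FNA and 13697 for rank 56 in malignant US-FNA.

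Against non-malignant tissue the members were lower in every other group by median, which a list chosen for high values in that tissue favours, so these contrasts carry no test. The median log2 ratio of the members was −0.81 in malignant tissue, −0.28 in non-malignant US-FNA and −1.23 in malignant US-FNA, where the medians over all genes with a median of at least 1 CPM in either group were 0.15, 0.08 and 0.05. In malignant tissue 15 members lay entirely below the 9 non-malignant tissues and 0 entirely above, where 6.53% and 6.69% of all genes did. In non-malignant US-FNA the counts were 10 below and 0 above, where 3.35% and 2.4% of all genes did. In malignant US-FNA they were 66 below and 1 above, where 20.4% and 15.8% of all genes did. Nothing is read from these counts, since the rule used this tissue.

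**Figure D2:**
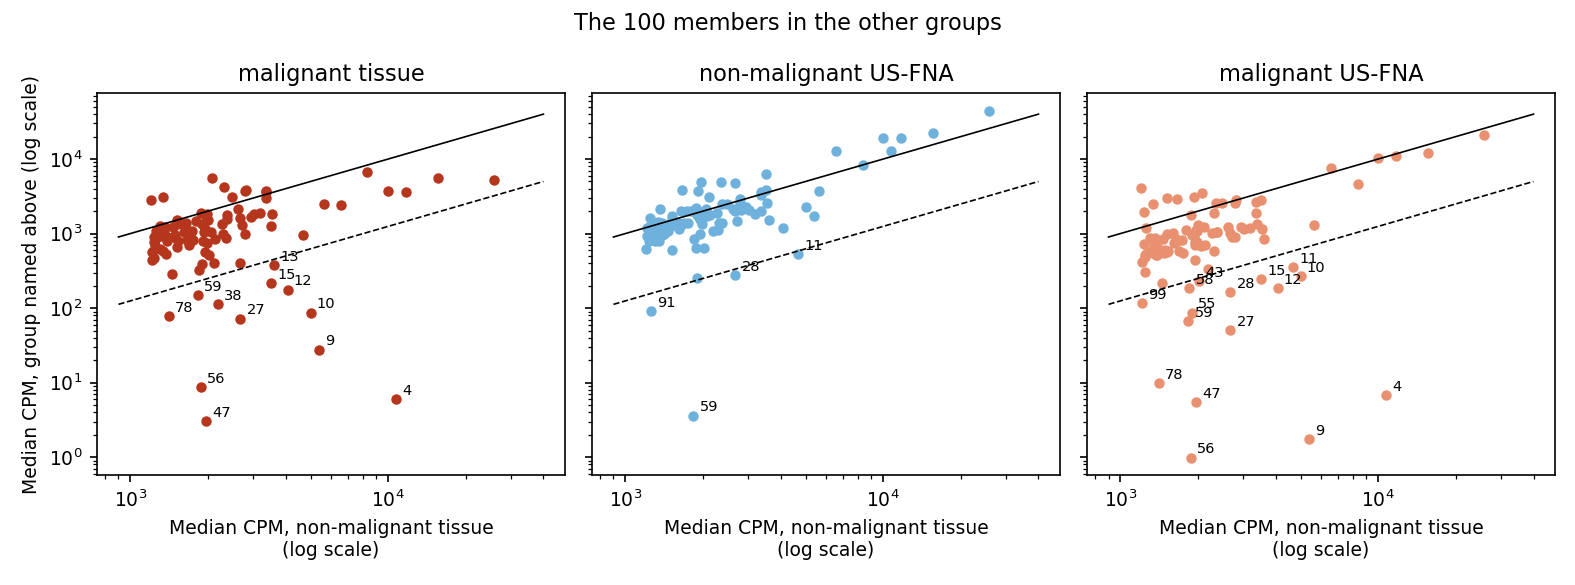
Median CPM of each of the 100 members in malignant tissue (left), non-malignant US-FNA (middle) and malignant US-FNA (right; vertical, log scale) against its median in non-malignant tissue (horizontal, log scale). The solid line marks equal medians and the dashed line an 8-fold lower median, and the numbers are the ranks of members below the dashed line, among them ranks 4, 9, 47 and 56 in both malignant groups.

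A set of 10 members was more than 8-fold lower by median in both malignant groups than in non-malignant tissue, namely ranks 4, 9, 10, 12, 15, 27, 47, 56, 59 and 78. They were singled out after their values were seen. Together they took a median of 4.57% of counts in non-malignant tissue and 3.04% in non-malignant US-FNA, but 0.0932% in malignant tissue, and in the malignant US-FNA 0.0835%. All but ranks 12 and 59 were also more than 8-fold higher in non-malignant US-FNA than in both malignant groups. Rank 27 was the steadiest of them within the malignant samples, with 59 to 83.8 CPM in the 9 malignant tissues and 46.1 and 55.0 CPM in the malignant US-FNA, against 1118 to 4132 CPM in non-malignant tissue and 3466 to 6510 CPM in non-malignant US-FNA. Rank 47 had at most 15.2 CPM in malignant tissue and 10.3 CPM in the malignant aspirates, and at least 153 CPM in non-malignant tissue. Rank 56 was more variable. It was at 0 counts in PT-1, which allows up to 0.54 CPM, and at 1 count in US-3, but at 2238 CPM in PT-8, within the range of non-malignant tissue (295 to 6078 CPM).

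The comparison of malignant with non-malignant US-FNA asked how the members fared between diagnoses in samples that had no part in choosing them. The malignant US-FNA came from neutered and the non-malignant US-FNA from intact dogs, so diagnosis and neutering cannot be told apart. Of the 100 members, 4 rose and 15 fell in malignant US-FNA (edgeR quasi-likelihood test, adjusted p under 0.05 over 15073 genes), where 16.3% of all genes rose and 12.3% fell. DESeq2 called 5 rising and 22 falling members, where 17.3% of all genes rose and 13.6% fell. Falling members also numbered 22 with library totals, without US-4 and without US-40, where 14%, 11.3% and 12.1% of all genes fell, but 10 without US-7, where 9.01% fell. Of the next 100 IDs, 6 rose and 29 fell. The median log2 fold change of the members was −0.67 against 0.09 over all genes. A negative estimate was found in 88 of the 100 members and in 7129 of all 15073 genes. Scaling by library totals moved the median of all genes to −0.12, and the members' median relative to all genes was −0.77 with TMM scaling and −0.73 with library totals. It rested on 2 malignant samples, being −0.33 without US-3 and −1.03 without US-4. For US-3, unlike the other US-FNA, no RNA integrity value is listed, and the part of RNA quality was not tested. In CPM, 60 members lay entirely below the non-malignant US-FNA and 5 entirely above, where 24.7% and 15.7% of all genes did. The count below was 31 with TMM library sizes, where 20.2% of all genes lay below, a scale chosen after seeing the data. Globin IDs, taken here as a sign of blood, took 2.98% and 3.98% of counts in the malignant US-FNA and from 0.0408% in US-40 to 2.83% in US-13 in the non-malignant US-FNA. The blood scores listed for US-40 and US-13 lie in the reverse order, so the globin share is an uncertain measure of blood. Its part in the result was not tested beyond leaving the globin IDs out, which gave the same counts of 4 and 15.

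The falls were large in few members. The largest was that of rank 4, ENSCAFG00000007419, which stood at 10146 CPM in US-13, 14060 CPM in US-7, 12811 CPM in US-15, 9515 CPM in US-32 and 12950 CPM in US-40. In malignant US-FNA it was at 2.22 CPM in US-4 and 11.6 CPM in US-3, that is 9 and 46 counts. Every malignant value lay below every non-malignant one (log2 fold change −10.52, SE 1.04, adjusted p = 0.000463). In malignant tissue it ran from 1.1 to 60.2 CPM with a median of 6.02 CPM, and in non-malignant tissue from 1864 to 22939 CPM with a median of 10760 CPM. Rank 4 was thus at or below 60.2 CPM in each of the 11 malignant libraries.

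Rank 9, ENSCAFG00000031922, stood at 1711 CPM in US-13, 2152 CPM in US-7, 1610 CPM in US-15, 1919 CPM in US-32 and 1404 CPM in US-40, and at 1.23 CPM in US-4 and 2.27 CPM in US-3, that is 5 and 9 counts. The groups did not overlap (log2 fold change −9.75, SE 0.67, adjusted p = 0.000201). In tissue its median was 5373 CPM in non-malignant samples, from 2660 to 10358 CPM, and 27.9 CPM in malignant samples, from 7.62 to 1112 CPM. The highest malignant tissue was PT-8, and the next was PT-3 at 146 CPM. Ranks 15, 27, 47, 56 and 78 were the other members that fell more than 8-fold, with log2 fold changes between −4.04 for rank 15 and −9.62 for rank 56. For ranks 47 and 56 the fitted values rest on very few reads in the malignant US-FNA.

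The members that rose most were low in non-malignant US-FNA rather than high in malignant samples. Rank 91, ENSCAFG00000019521, stood at 106 CPM in US-13, 69.7 CPM in US-7, 91.6 CPM in US-15, 26.2 CPM in US-32 and 107 CPM in US-40, and at 1422 CPM in US-4 and 940 CPM in US-3 (log2 fold change 4.10, SE 0.46, adjusted p = 0.000745). Its medians in tissue were 1259 CPM in non-malignant samples, from 348 to 5258 CPM, and 1085 CPM in malignant samples, from 360 to 3156 CPM. The non-malignant US-FNA were therefore the group that stood apart, below all 20 other libraries.

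Rank 59, ENSCAFG00000018560, was likewise lower in the non-malignant US-FNA than in all 20 other libraries. It was at 10.2 CPM in US-13, 3.62 CPM in US-7, 4.92 CPM in US-15, 3.32 CPM in US-32 and 2.39 CPM in US-40, and at 46.4 CPM in US-4 and 89.2 CPM in US-3 (log2 fold change 3.97, SE 0.56, adjusted p = 0.00194). In non-malignant tissue it ran from 617 to 12928 CPM with a median of 1834 CPM, and in malignant tissue from 26.7 to 1805 CPM with a median of 150 CPM. It was higher in malignant than in non-malignant aspirates, while its tissue medians lay in the opposite order.

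Ranks 41 and 100 were the other members that rose, and both had their highest medians in malignant samples. Rank 100 was at 2421 CPM in US-4 and 5750 CPM in US-3 and between 476 and 919 CPM in the non-malignant US-FNA (log2 fold change 2.75, SE 0.47, adjusted p = 0.00402). In tissue it ran from 1792 to 4439 CPM in malignant and from 888 to 2008 CPM in non-malignant samples, so that the ranges overlapped slightly. Rank 41 was at 4714 CPM in US-4 and 2304 CPM in US-3 and between 849 and 1738 CPM in non-malignant US-FNA (log2 fold change 1.44, SE 0.46, adjusted p = 0.0444). In malignant tissue it was variable, from 644 CPM in PT-1 to 10279 CPM in PT-4. With library totals 3 members rose in malignant US-FNA in place of 4, where 13% of all genes rose. Leaving out any one non-malignant US-FNA also gave 3, where 11% to 14.3% of all genes rose.

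The comparison of malignant tissue with non-malignant US-FNA used more samples, again none that chose the list. Its sides differ in sample type and in part in neutering as well as in diagnosis. The effects of these cannot be told apart. Of the 100 members, 6 rose and 30 fell in malignant tissue (edgeR, adjusted p under 0.05 over 15127 genes), where 26% of all genes rose and 21.5% fell. Of the next 100 IDs, 7 rose and 35 fell. The median log2 fold change was −0.36 for the members and 0.16 for all genes. In CPM, 19 members lay entirely below the non-malignant US-FNA and 3 entirely above, where 11.1% and 9.41% of all genes did, and with TMM library sizes 12 lay below, where 10.8% of all genes did. Of ranks 1 to 10, 8 fell here and 2 in malignant against non-malignant US-FNA, and of ranks 51 to 100, 10 and 5 fell. Of the 8, 5 belong to the run of neighbouring IDs described below. This comparison shares its non-malignant US-FNA with the previous one, so the values are given side by side and not as a repeat.

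Rank 4 again showed the lowest levels relative to non-malignant US-FNA among ranks 1 to 10 (log2 fold change −9.56, SE 0.91, adjusted p = 2.19e-06). DESeq2 gave it an estimate of −4.96 (adjusted p = 0.00343), which understates the gap between the libraries. The highest malignant tissue held 60.2 CPM and the lowest non-malignant US-FNA 9515 CPM. Why DESeq2 gave this value was not tested. Rank 27 had the smallest adjusted p of the members, 1.22e-09 in edgeR, with a log2 fold change of −6.22 and an SE of 0.25. Rank 47 had a log2 fold change of −9.73 with an SE of 0.83 (adjusted p = 8.37e-07). Rank 9 fell as well, at −3.56 with an SE of 1.06 (adjusted p = 0.0126). Among the 6 that rose were rank 59 at 6.30 (SE 1.25, adjusted p = 0.000985), rank 91 at 3.99 (SE 0.56, adjusted p = 6.39e-05) and rank 100 at 2.09 (SE 0.35, adjusted p = 0.000263). Ranks 41, 87 and 89 were the others.

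**Figure D3:**
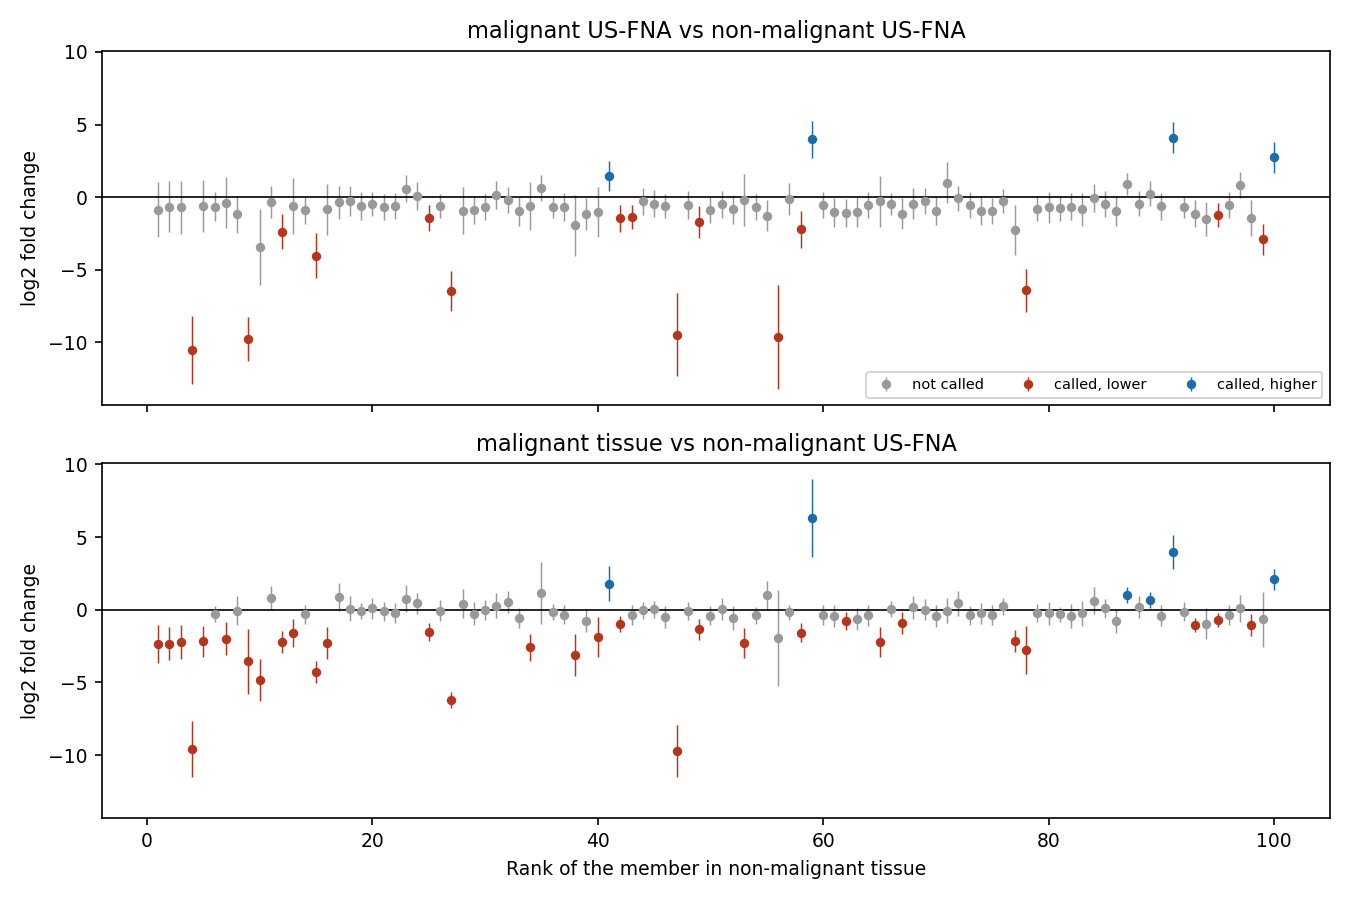
Log2 fold change of each member by rank, in malignant against non-malignant US-FNA (top) and malignant tissue against non-malignant US-FNA (bottom), with 95% intervals from the edgeR fit. Colours mark members called at an adjusted p under 0.05: 4 higher and 15 lower at the top, 6 higher and 30 lower at the bottom.

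A set of 9 members had medians more than 1.5-fold higher in US-FNA than in tissue in both diagnoses, namely ranks 1, 3, 5, 7, 16, 34, 47, 53 and 65, also singled out after their values were seen. Rank 47 belongs to it on very few reads in the malignant samples, with medians of 3.06 CPM in tissue and 5.54 CPM in US-FNA. Together the 9 took a median of 6.68% in non-malignant tissue, from 3.15% in PT-15 to 13.6% in PT-11, and 11.7% in non-malignant US-FNA, from 4.99% in US-40 to 17.0% in US-32. In malignant samples they took a median of 1.89% in tissue, from 0.79% to 4.34%, and 8.53% in US-4 and 3.61% in US-3. Without them the other 91 members held from 19.0% to 28.2% in non-malignant tissue, 15.01% to 19.6% in non-malignant US-FNA, 9.45% to 17.5% in malignant tissue, and 12.1% and 7.86% in US-4 and US-3. Rank 1 alone stood at 54787 CPM in US-13, 19131 CPM in US-7, 44298 CPM in US-15, 65974 CPM in US-32 and 17742 CPM in US-40, and at 28974 CPM in US-4 and 12421 CPM in US-3. These ranges overlapped, and rank 1 did not pass the test between malignant and non-malignant US-FNA (log2 fold change −0.85, SE 0.84, edgeR adjusted p = 0.47). It passed between malignant tissue and non-malignant US-FNA (log2 fold change −2.38, SE 0.62, adjusted p = 0.00554).

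All of this set but rank 47 carried ID numbers from a single run, as did ranks 2 and 40, so that 10 members lay within 30 consecutive numbers. These members are therefore not treated as separate observations. The files give no position, so what the run holds could not be told. Whether it is a single locus, such as the mitochondrial genome, or holds secretory products was not tested. It took a median of 8.08% of counts in non-malignant tissue (3.62% to 17.7%), 2.5% in malignant tissue (0.97% to 5.21%) and 13.96% in non-malignant US-FNA (5.27% to 20.03%), and 10.4% in US-4 and 4.45% in US-3. Of its 10 members, 10 fell in malignant tissue against non-malignant US-FNA, where 21.5% of all genes fell, with a median log2 fold change of −2.24. In malignant against non-malignant US-FNA 0 were called, where 16.3% of all genes rose and 12.3% fell, with a median of −0.63. Between malignant US-FNA and malignant tissue 0 were called, where 2.45% of all genes rose and 0.199% fell, with a median of 1.61. The other 90 members took 18.4% to 24.1% in non-malignant tissue, 9.15% to 17.2% in malignant tissue and 14.7% to 19.1% in non-malignant US-FNA, and 10.2% in US-4 and 7.03% in US-3. In the same 3 comparisons 20, 15 and 0 of them fell and 6, 4 and 0 rose, with medians of −0.27, −0.68 and −0.43. Of all genes 21.5%, 12.3% and 0.199% fell and 26%, 16.3% and 2.45% rose, with medians of 0.16, 0.09 and −0.09. The split was chosen after seeing the data.

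The opposite order, a median more than 2-fold lower in US-FNA than in tissue in both diagnoses, was seen in 7 members, namely ranks 9, 11, 28, 43, 55, 56 and 59. Rank 11 had a median of 4685 CPM in non-malignant tissue (781 to 9139 CPM) and of 536 CPM in non-malignant US-FNA (304 to 683 CPM), with no overlap. In malignant samples it had a median of 956 CPM in tissue (483 to 1588 CPM), and 517 and 203 CPM in US-4 and US-3. Rank 28 had medians of 2668, 277, 405 and 163 CPM in non-malignant tissue, the non-malignant aspirates, malignant tissue and the malignant aspirates. Because the values of non-malignant tissue chose the list, these differences are a description.

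Some members hardly differed between groups. Ranks 18, 24, 31 and 57 had all 4 group medians within 1.5-fold of each other. Rank 18 had medians of 3368 CPM in non-malignant tissue, 3606 CPM in malignant tissue, 3645 CPM in non-malignant US-FNA and 2648 CPM in malignant US-FNA. The spread among malignant tissues was wider than among non-malignant ones, from 1854 to 6779 CPM. Together these 4 members took a median of 1.08%, 1.11%, 1.22% and 0.961% of counts in the same order.

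**Figure D4:**
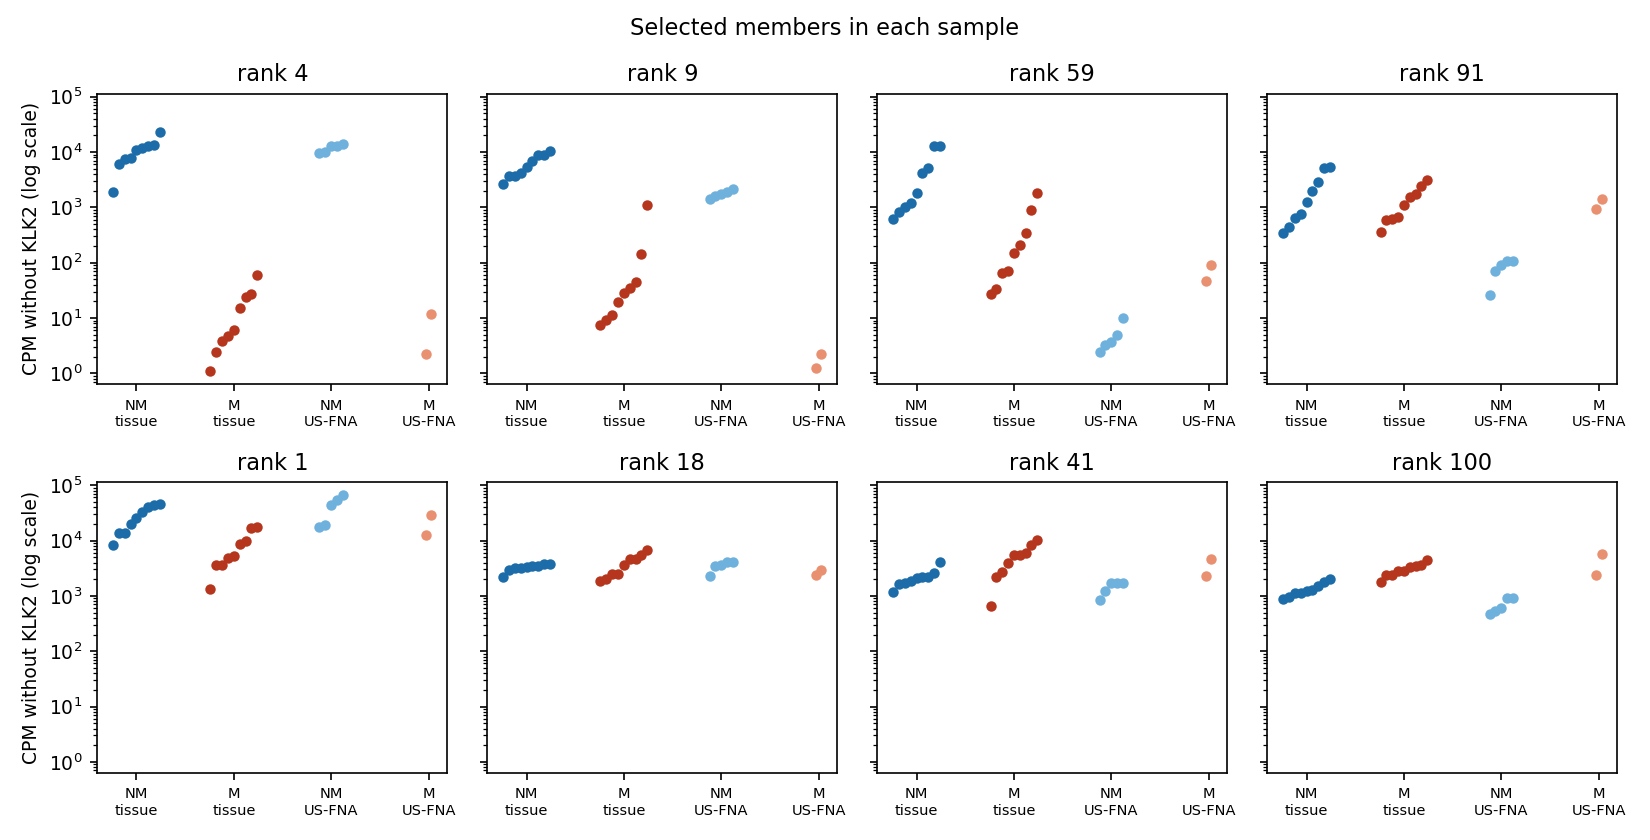
CPM without KLK2 (log scale) of 8 members in each library of non-malignant (NM) and malignant (M) tissue and US-FNA, sorted within a group. Ranks 4 and 9 are low in both malignant groups, ranks 59 and 91 are lowest in non-malignant US-FNA, and rank 18 lies between 1854 and 6779 CPM in all libraries.

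The comparison of malignant US-FNA with malignant tissue asked about sample type within a diagnosis. In edgeR 0 members rose and 0 fell, where 2.45% of 15086 genes rose and 0.199% fell, with 10 members at an unadjusted p under 0.05, where 15.5% of all genes were. DESeq2 called 6 members, 3 in each direction, where 4.92% of 16166 genes rose and 2.39% fell. The members at an unadjusted p under 0.05 were ranks 2, 5, 7, 16, 34, 53 and 65 with higher and ranks 9, 55 and 78 with lower estimates in US-FNA, from 2.09 on the log2 scale for rank 53 (SE 0.60) to −6.18 for rank 9 (SE 2.62). The median log2 fold change was −0.36 for the members and −0.09 for all genes, but 1.47 for ranks 1 to 10, of which 5 belong to the run of neighbouring IDs. The members' median relative to all genes was −0.27, and it was 0.04 without US-3 and −0.44 without US-4.

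Within malignant tissue the 6 neutered dogs were compared with the 3 intact dogs. In edgeR 0 members rose and 0 fell, as did 0% and 0% of all 15073 genes tested, with 2 members at an unadjusted p under 0.05, ranks 9 and 56, where 5.26% of all genes were. DESeq2 gave no p for these 2 ranks and called 0 of the other 98 members, where 0.117% of 13639 genes rose and 0.022% fell. For rank 56 the estimate was −5.94 with an SE of 1.78 (edgeR adjusted p = 0.913). Of the 3 intact dogs, PT-8 held 2238 CPM of it, PT-4 12.4 CPM and PT-1 none. The median log2 fold change was −0.04 for the members and −0.06 for all genes. It depended on single intact dogs, being −0.36 for the members without PT-1, 0.48 without PT-4 and −0.14 without PT-8, where all genes had −0.015, −0.009 and 0.007. These values do not show that neutering left the members unchanged.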

How the data were processed

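Per the labels and the study's methods, the authors trimmed reads with Trimmomatic (0.32), aligned them to CanFam3.1 with TopHat2 and deposited HTSeq read counts per Ensembl gene (default parameters) for 25 samples. The 5 tallies per file that name no gene were left out; reads counted to no gene were 58.8% to 70.3% of a file. Multiply aligned reads were tallied as 0 and no strand information was used here, so IDs with near-identical, overlapping or antisense partners are uncertain. From the deposited counts, CPM without KLK2 was computed in Python 3.11.15 (pandas 2.3.3). Tests used edgeR 4.0.16 in R 4.3.3: TMM, filterByExpr over the 4 groups (minimum count 10, total 15), KLK2 left out, quasi-likelihood fit of the compared groups alone, Benjamini-Hochberg adjustment over all genes, and calls at 0.05. Gene lengths were not used. Log2 ratios of medians used a pseudocount of 0.5 CPM.

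The members and lists were chosen with earlier results of these data known. IDs are printed for the 2 rising and 2 falling called members with the largest log2 fold change between malignant and non-malignant US-FNA and no overlap; other members described were picked after their values were seen. Gene and cell type lists planned by symbol could not be used. The labels give no dog ID, so samples were taken as separate dogs without a check. Within groups 0 of 83 pairs held identical counts, and the lowest chi-square per degree of freedom was 17.5. This does not show that the dogs differ, and pairs across groups were not examined. Per the study, the euthanised dog of US-3 also gave prostate tissue, and the labels do not tell whether it was sequenced. Alternatives were other scalings, filters, tools (DESeq2 1.42.0), thresholds, list sizes and leaving out samples.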

Additional observations from a re-analysis of the deposited data

Results flagged for a closer look

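A sample far from the others of its group was looked for in 33 sets of values. These were the shares and the CPM of the printed IDs and of KLK2, KLK4 and ACPP in the groups of 5 and 9 libraries. In all, 8 were found, each at the high end of its group. For normally distributed values chance gives about 1 in 20. The shares and CPM need not be so distributed, so no excess is read from the 8. The share of the members gave none. PT-8 stood apart from the other malignant tissues in 3 measures. It held 1110 CPM of ENSCAFG00000031922 (rank 9) where the next tissue held 146 CPM, 1810 CPM of ENSCAFG00000018560 (rank 59) where the next held 912 CPM, and 23.7 CPM of ACPP where the next held 6.91 CPM. PT-3 held 60.2 CPM of ENSCAFG00000007419 (rank 4), the next malignant tissue 27.0 CPM. PT-9 had a KLK2 share of 0.0657%, the next malignant tissue 0.0044%. PT-5 had 6.02 CPM of KLK4, the next malignant tissue 3.06 CPM. Among non-malignant samples, US-32 had 592 CPM of KLK4 where the next US-FNA had 358 CPM, and PT-12 had 501 CPM of ACPP where the next tissue had 289 CPM. The causes were not tested.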

How the results depend on the processing

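Across the alternatives to the counts, shares and medians reported, 125 values stayed within 1.5 times the reported count or within the spread of the samples and 20 moved. Many that stayed were 0 against 0, in comparisons where the main fit called no member. Leaving out either malignant US-FNA could not move that group's median share by this rule. The tally is therefore no measure of robustness. At an adjusted p under 0.00001, 0% of the members were called in malignant against non-malignant US-FNA, as of all genes, and 4% in malignant tissue against non-malignant US-FNA, with 1.69% of all genes. Between malignant US-FNA and malignant tissue, DESeq2 called 6% (7.31% of all genes), a fit of all groups called 2% (7.89%) and the 200 highest IDs gave 1% (2.65%); the cause was not tested. With KLK2 in the denominator the members' median share was 21.3% in non-malignant tissue and 17.2% in non-malignant US-FNA, by construction, and the tissue ranges overlapped. Without the run of 10 neighbouring IDs the median was 20.9% in non-malignant tissue and 12.0% in malignant tissue. In non-malignant and malignant US-FNA it was 15.7% and 8.62%. Of the other members 28.9% were called in malignant tissue against non-malignant US-FNA, with 47.6% of all genes. In malignant against non-malignant US-FNA 21.1% of them were called, with 28.5% of all genes. This split was chosen after seeing the data. The 50 highest IDs took 23%, 10.8% and 23.7% in non-malignant tissue, malignant tissue and non-malignant US-FNA, and the 200 highest 39.8%, 21.0% and 38.7%. Members entirely below the non-malignant US-FNA numbered 31 with TMM library sizes (20.2% of all genes) and 32 with DESeq2 size factors (20.1%) in malignant US-FNA, and 12 with TMM library sizes (10.8%) in malignant tissue, both scales chosen after seeing the data. Leaving out each US-FNA in turn, and no malignant tissue, gave from 13% to 25% of members called in malignant against non-malignant US-FNA (20% to 26.9% of all genes), from 31% to 34% in malignant tissue against non-malignant US-FNA (40.6% to 43.9%), and from 23% (without US-4) to 49% (without US-3) of members among the leading IDs of malignant US-FNA. A lone malignant US-FNA is assumed in such a fit to vary like the other group. For the 4 printed IDs, 177 refitted values kept their side of the threshold, and ENSCAFG00000031922 passed it between malignant US-FNA and malignant tissue in DESeq2 (log2 fold change −4.14) and in the fit of all groups (−6.17). In malignant tissue against non-malignant US-FNA, DESeq2 gave ENSCAFG00000007419 −4.96 in place of −9.56, less than the gap in CPM between the closest libraries of these groups. No paired analysis was possible because the labels do not pair samples. With 2 malignant US-FNA, spread within that group is poorly known.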

Other observations

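Reads counted to no gene made up 61.9% to 70.3% of a file in non-malignant US-FNA and 58.8% to 68.8% in non-malignant tissue, which overlapped, and 64.8% to 65.8% in malignant US-FNA and 59.2% to 61.7% in malignant tissue, which did not. The counting used default parameters, and whether their strand setting matched the libraries is not settled. Reads from the opposite strand of genes therefore cannot be told apart from reads outside genes. No test was made. US-13 had the highest such share, the smallest library (3355926 gene counts) and the highest globin share of the non-malignant US-FNA, 2.83%, yet its members' share of 33.6% was within that of its group. US-40 had the lowest globin share of the aspirates, 0.0408%, and the lowest members' share of the non-malignant libraries, 20%. PT-1 held 0 counts of ranks 35 and 56, each allowing up to 0.54 CPM.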
